A study of Mus musculus with 12 samples.

Results

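The genes described here are the nuclear-encoded subunits of complexes I, III and IV of the respiratory chain and of ATP synthase (complex V), measured in mouse embryonic stem (ES) cells. Members were taken by symbol, as genes named Ndufa, Ndufb, Ndufc, Ndufs or Ndufv plus a number, Uqcr, Cox4 to Cox8, or Atp5, from probe sets annotated with exactly 1 gene symbol, with the brightest probe set standing for each gene. This gave 76 of the 22180 genes on the array. By complex, 31 belong to complex I, 7 to complex III, 19 to complex IV and 17 to complex V, and 2 are pseudogene models (Atp5c1-ps and Uqcrh-ps1). Ndufa4 and Ndufa4l2 were counted with complex IV, where the Ndufa4 protein is known to sit, and so was Cox7a2l, which joins complexes III and IV. The symbol rule leaves out cytochrome c, its partner Cyc1 in complex III, the acyl carrier Ndufab1, complex II and the subunits encoded by mitochondrial DNA. Those lists are covered at the end, where 10 mitochondrially encoded subunits had a value.

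All cells were of the mouse ES line K3. Arrays labelled WT/mock came from cells with an intact ERRb gene (symbol Esrrb) and a mock treatment. Those labelled KO/mock came from cells in which ERRb had been knocked out, with the same mock label, and those labelled KO/ERRb-wt from knockout cells given a lentivirus that carries ERRb. Each label held 4 arrays, from 2 clones with 2 biological replicates each: WT/mock clones 5-2 and 5-5, KO/mock clones 8-3 and 8-4, and KO/ERRb-wt clones 12-1 and 12-3. All cells, the WT/mock cells included, had spent 3 days in N2B27 medium with doxycycline and the inhibitors CH99021 and PD0325901. Before that they grew with LIF in place of doxycycline. The labels do not say what drives the viral gene, which part of Esrrb was removed, or what the mock was. Each clone carries 1 label only, so a difference between labels rests on 2 clones against 2.

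The respiratory chain sits in the inner mitochondrial membrane. Complex I takes electrons from NADH and passes them to ubiquinone, complex III hands them on to cytochrome c, and complex IV gives them to oxygen, with protons pumped at each of these steps. ATP synthase lets the protons flow back and uses that flow to make ATP. ERRb is an orphan nuclear receptor of the estrogen-related receptor (ERR) family, whose members are known to bind near genes of oxidative metabolism in energy-demanding tissues; in mouse ES cells ERRb is better known as part of the network that maintains naive pluripotency.

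Values are log2 expression, on which a difference of 1 is a doubling of signal. Esrrb itself went against the labels. Under the label WT/mock its probe set read 7.38, 7.38, 7.39 and 7.38. Under KO/mock it read 7.48, 8.00, 7.74 and 7.41, and under KO/ERRb-wt 6.99, 6.76, 6.50 and 6.68. It was thus not lower on the knockout arrays than on WT/mock, and it was lowest on the arrays labelled as carrying the returned gene. Where the probe set lies relative to the deleted part, and whether it reads the viral copy, is not known here. Whether labels were exchanged was therefore not settled, and the cause of the Esrrb values was not tested. If labels were exchanged, the directions below would belong to other conditions, so groups are named only as they are labelled. Array medians lay between 5.00 and 5.07. Of 10 ES cell markers, 9 stood above the array median, with array means from 9.85 to 9.92 on KO/ERRb-wt, 9.98 to 10.0 on KO/mock and 10.0 to 10.1 on WT/mock. The marker means were 4.46 to 4.67 for feeder fibroblasts (4 of 8 above the array median), 5.09 to 5.33 for primitive endoderm (3 of 6) and 5.21 to 5.65 for neuroectoderm (2 of 4), and of these the primitive endoderm mean was higher on every WT/mock array (5.23 or more) than on any other (5.22 or less). Single markers moved more than their lists: on KO/ERRb-wt against WT/mock 5 of the 10 ES cell markers fell (Klf4 by -0.78 ± 0.07, Fgf4 by -0.44 ± 0.06, and Nanog, Utf1 and Tfcp2l1 by less), as did Gata4 (-0.56 ± 0.10) and Sox1 (-0.67 ± 0.13), while Tubb3 (0.71 ± 0.13) and Thy1 (0.35 ± 0.10) rose. On KO/mock against WT/mock Klf4, Fgf4, Gata4 and Sox1 fell (-0.47, -0.35, -0.51 and -0.62), and Sox7 differed by 0.43 ± 0.14 without passing. On KO/ERRb-wt against KO/mock 4 of the 10 ES cell markers (Klf4, Nanog, Tfcp2l1 and Utf1) and Sox7 (-0.63 ± 0.14) fell, and Dab2 (0.34 ± 0.08) and Tubb3 (0.67 ± 0.13) rose. An adjusted p under 0.05 was reached by 20.8% of all genes on KO/ERRb-wt against WT/mock. The share was 5.58% on KO/mock against WT/mock and 4.40% on KO/ERRb-wt against KO/mock. Among genes with a mean log2 of at least 6 the shares were 37.8, 10.8 and 8.30% in that order. The part of these markers and of Esrrb in the values below was not tested.

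The promoters of the subunit genes were searched for the binding sequences of the factors best known at such genes, because the study asks about ERRb targets. RefSeq promoters (GRCm38.p6, 250 bases before to 50 after the transcription start) matched 61 of the 76 members by gene identifier. The ERR element was searched as TNAAGGTCA on both strands, the site of nuclear respiratory factor NRF1 as the palindrome in capitals in the lines for Ndufa11, Atp5g2, Atp5k, Cox6a1 and Uqcrc1, and an ETS site, the kind bound by Gabpa, as CCGGAAGT on both strands. The ERR element stood in 1 of the 61 promoter sets (1.64%), against 1.43% of all genes with a promoter in the table and 0.745% of array genes with a mean log2 of at least 6. That gene was Atp5g3, which encodes subunit c of ATP synthase. Its promoter, at chr2:73911277-73911576 on the minus strand, is shown 5′ to 3′ with the matched letters TGACCTTGA in capitals, which is the element on the opposite strand; the first matched base lies at -52 from the start.
Atp5g3: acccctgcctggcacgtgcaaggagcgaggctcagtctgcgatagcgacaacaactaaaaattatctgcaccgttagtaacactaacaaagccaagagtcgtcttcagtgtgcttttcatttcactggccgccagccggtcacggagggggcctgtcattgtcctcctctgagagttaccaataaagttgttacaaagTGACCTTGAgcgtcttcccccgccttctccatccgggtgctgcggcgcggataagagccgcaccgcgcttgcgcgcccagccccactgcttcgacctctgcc

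The NRF1 sequence stood in 5 of the 61 (8.2%), against 1.07% of all genes in the table and 2.62% of array genes with a mean log2 of at least 6. The ETS sequence was also in 5 (8.2%: Atp5h, Cox8a, Ndufs3, Uqcr11 and Uqcrh), against 4.31% and 10.1%. These windows were counted and not tested, and a match is a run of letters, not a shown binding site. Of the 12 members called in any comparison below, 11 had a promoter in the table and 0 of these held the ERR element. With the element in only 1 of the 61 members, this count says little about the called ones. Ndufa11, the member called in both comparisons with WT/mock, held the NRF1 sequence. Its promoter, at chr17:56717512-56717811 on the plus strand, is shown with the NRF1 match in capitals, from -60.
Ndufa11: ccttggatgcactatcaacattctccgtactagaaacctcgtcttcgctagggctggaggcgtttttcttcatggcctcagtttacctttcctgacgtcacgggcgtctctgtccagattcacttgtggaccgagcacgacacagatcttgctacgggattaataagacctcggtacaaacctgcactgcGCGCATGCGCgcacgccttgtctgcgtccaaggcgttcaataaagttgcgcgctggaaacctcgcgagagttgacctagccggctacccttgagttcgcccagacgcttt

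The other promoters with the NRF1 sequence are shown as the match in capitals with 10 bases on each side, so that the shared core and the unlike flanks can be seen. The first matched base lies at -42 in Atp5g2, -50 in Atp5k, -162 in Cox6a1 and 31 bases into the transcript, counting from 1, in Uqcrc1.
Atp5g2: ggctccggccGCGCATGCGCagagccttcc
Atp5k: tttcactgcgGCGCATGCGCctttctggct
Cox6a1: caggaacgggGCGCATGCGCgctctcgctc
Uqcrc1: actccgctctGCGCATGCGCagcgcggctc

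Most subunit genes gave a strong signal. The median over the 76 members lay between 8.65 and 8.88 on every array, and 65 had a mean log2 of at least 6 over all arrays, 11 a lower one. Signals of different probe sets depend on their probes, so levels are given only to show how bright each measurement is. The brightest and dimmest probe sets were Ndufb9 (11.6) and Ndufs5 (5.17) in complex I, Uqcrb (12.4) and Uqcrq (6.4) in complex III, Cox6a1 (12.4) and Cox7b2 (2.93) in complex IV, and Atp5b (12.3) and Atp5j2 (5.43) in complex V. The pseudogene models read 2.97 (Atp5c1-ps) and 3.06 (Uqcrh-ps1). The members were also measured with little scatter: their median SD within a label was 0.0737, and for members with a mean of at least 6 it was 0.0705 against 0.088 for all such genes. Between the clones of a label, the median size of a member's difference was 0.0624 for WT/mock, 0.0477 for KO/mock and 0.0553 for KO/ERRb-wt, against 0.093, 0.0905 and 0.0864 over all genes. Limma called 0 members between the clones of any label, where it called 0%, 0.00902% and 0% of all genes. An unadjusted p under 0.05 was reached by 1, 5 and 1 of the 76 members, beside 1640, 1529 and 1134 of all 22180 genes.

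**Figure D1:**
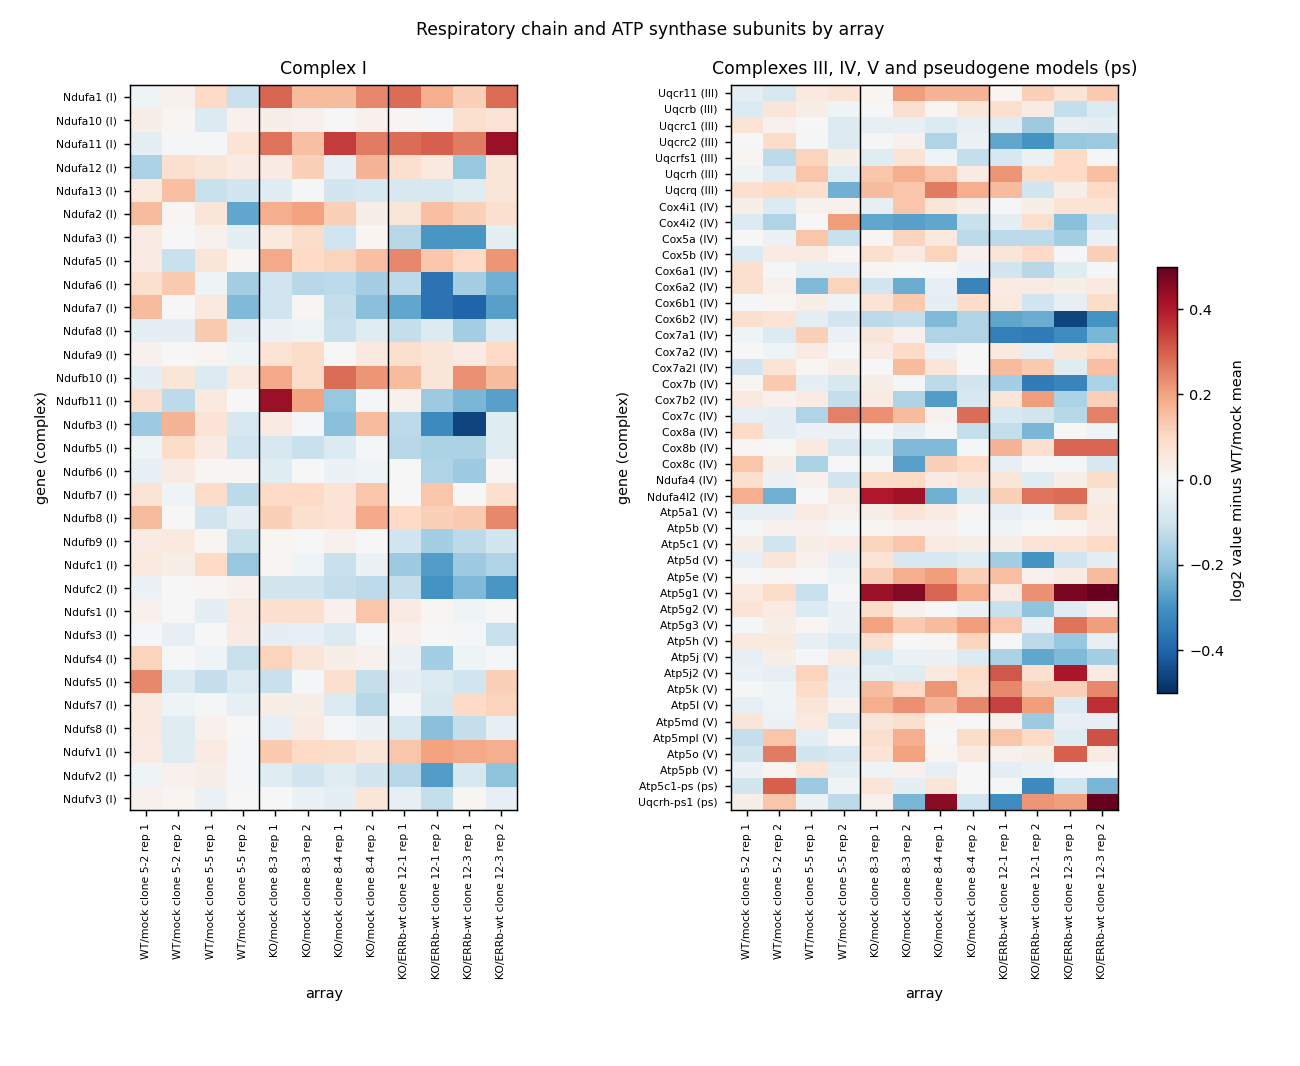
Each cell is a member's log2 value on 1 array minus the mean of the 4 WT/mock arrays for that gene, in red where higher and blue where lower; colours are cut at 0.5 in both directions, and black lines part the labels. Most rows are pale on all arrays, and the strips of steady colour over the 4 KO/ERRb-wt arrays include Ndufa11 in red and Cox7a1 and Cox6b2 in blue.

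The comparison of KO/mock with WT/mock addresses what loss of ERRb does to these genes, as labelled. Of the 76 members, 1 was called higher and 0 lower by limma at an adjusted p under 0.05, which is 1.32%, while 5.58% of all genes were called (2.11% higher, 3.47% lower). At an unadjusted p under 0.05 there were 9 higher and 2 lower, beside 2294 and 2215 of all 22180 genes, or 1799 and 1534 of the 9761 genes with a mean log2 of at least 6. The member called was Ndufa11, an accessory subunit in the membrane arm of complex I near its contact with complex III. It read 8.87, 8.91, 8.91 and 8.99 on WT/mock and 9.19, 9.07, 9.27 and 9.18 on KO/mock. All 4 KO/mock arrays lay above all 4 WT/mock arrays, by 0.26 ± 0.06 on the log2 scale (SE, n = 4 and 4; limma adjusted p = 0.0404). This call stands close to the threshold. It was lost when any of 7 single arrays was left out (all of WT/mock except clone 5-5 replicate 2, clone 8-3 replicate 1, both of clone 8-4, and clone 12-1 replicate 1; adjusted p up to 0.124). It was also lost without any single clone but 12-3 (adjusted p up to 0.276), with all probe sets of the gene averaged (0.13, adjusted p = 0.736), with clones averaged, with a replicate block, with the 2 groups fitted alone, and after quantile normalization.

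The remaining members differed by little between these labels. The median difference of the members was 0.02, against 0.00 for all genes, and the median size of a difference was 0.0574 against 0.0916. For 75 of the 76 the 95% interval of the difference lay within 0.5 of 0 on the log2 scale; the exception was Atp5g1, with an interval from 0.11 to 0.57. The median interval reached 0.140 to each side, so a shift of that size in a single gene could have been missed. In complex I the largest decrease was that of Ndufa6, at -0.14 ± 0.08 (adjusted p = 0.421). In complex III the extremes were Uqcrq (0.18 ± 0.09) and Uqcrc1 (-0.05 ± 0.06), and in complex IV Cox7c (0.17 ± 0.11) and Cox4i2 (-0.22 ± 0.09). Neither these nor the extremes of complex V, Atp5g1 (0.34 ± 0.11, adjusted p = 0.114) and Atp5j (-0.06 ± 0.05), passed the test.

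By complex, the median differences between KO/mock and WT/mock were 0.01 for complex I, 0.04 for complex III, -0.01 for complex IV and 0.05 for complex V. Of the 17 ATP synthase members 14 had a positive difference, and 0 were called by limma after adjustment. Positive differences were held by 11380 of all 22180 genes and by 5421 of the 9761 with a mean log2 of at least 6. An unadjusted p under 0.05 was reached by 5 of the 17, to be read beside the counts over all genes given above; whether the complex differs from other genes was not tested. Among the c-ring genes, which encode the same mature subunit c behind different targeting sequences, Atp5g1 read 6.32, 6.36, 6.16 and 6.26 on WT/mock and 6.70, 6.73, 6.56 and 6.45 on KO/mock. These arrays did not overlap. Atp5g3, whose promoter holds the ERR element shown above, differed by 0.18 ± 0.07 (adjusted p = 0.192), with 9.38, 9.42, 9.40 and 9.36 on WT/mock and 9.59, 9.52, 9.55 and 9.60 on KO/mock. Its arrays did not overlap either, while the brightest c-ring gene on the array, Atp5g2, differed by 0.02 ± 0.06. Arrays without overlap also occurred in other members that were not called, such as Atp5e and Ndufa5. The share of all genes without overlap is not given here. Left without clone 12-1, which enters only the shared spread, Atp5g1 was called at an adjusted p of 0.0428.

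The comparison of KO/ERRb-wt with KO/mock addresses, as labelled, what returning ERRb does, although Esrrb itself read lower there (-0.93 ± 0.13, adjusted p = 0.00436). Again 1 of the 76 members was called higher and 0 lower by limma (1.32%), against 4.40% of all genes (1.24% higher, 3.17% lower). At an unadjusted p under 0.05 there were 3 higher and 11 lower, beside 2152 and 2664 of all genes, or 873 and 2245 of the 9761 with a mean log2 of at least 6, where lower values also prevailed. The called member was Cox8b, the heart and skeletal muscle form of complex IV subunit 8. It read 4.01, 3.85, 3.85 and 4.06 on KO/mock and 4.24, 4.15, 4.36 and 4.36 on KO/ERRb-wt, a difference of 0.33 ± 0.07 (adjusted p = 0.0333). These arrays did not overlap, but all lay below the array median of about 5, and without a detection call this dim signal cannot be told from background. The call was lost when any of 7 single arrays was left out (clone 5-2 replicate 1, both of clones 8-3 and 12-3, clone 8-4 replicate 1 and clone 12-1 replicate 1; adjusted p up to 0.0887), and without clone 8-3, 8-4 or 12-3 (up to 0.21).

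Cox7a1, the heart and muscle form of complex IV subunit 7a, came nearest among the rest. It read 7.45, 7.41, 7.24 and 7.24 on KO/mock and 7.05, 7.04, 7.08 and 7.16 on KO/ERRb-wt. Here too the arrays did not overlap, and the difference of -0.25 ± 0.07 had an adjusted p of 0.0761. It was called without clone 8-4 (adjusted p = 0.0459), together with Ndufb11 (-0.48, adjusted p = 0.0487). With all arrays Ndufb11, a membrane-arm subunit of complex I, had the largest decrease of its complex at -0.27 ± 0.12 (adjusted p = 0.253), and the largest increase was that of Ndufv1 (0.08 ± 0.05). The extremes elsewhere were Uqcrfs1 (0.03 ± 0.07) and Uqcrc2 (-0.19 ± 0.06) in complex III, and Atp5j2 (0.20 ± 0.09) and Atp5j (-0.15 ± 0.05) in complex V. None of them passed the test.

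Median differences between KO/ERRb-wt and KO/mock were slightly below 0 in all complexes: -0.05 for complex I, -0.06 for complex III, -0.02 for complex IV and -0.02 for complex V. Over all members the median was -0.04, with 49 negative and 27 positive, against 0.02 for all genes and -0.04 for all genes with a mean of at least 6. Negative differences were held by 10071 of all 22180 genes and by 5924 of the 9761 with that brightness. Quantile normalization brought the members' median to -0.00428 and centring each array on its median brought it to -0.0717. For 74 of 76 members the 95% interval lay within 0.5 of 0.

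KO/ERRb-wt differed more from WT/mock than the other pair did, for the subunits and for all genes. Of the 76 members 3 rose and 8 fell, which is 14.5%, while 20.8% of all genes were called (8.82% higher, 12.0% lower). Bright genes are called more often, so the share among those with a mean log2 of at least 6 is the closer comparison: 16.9% of 65 members against 37.8% of 9761 genes. The same shares were 1.54% against 10.8% for KO/mock against WT/mock and 0% against 8.30% for KO/ERRb-wt against KO/mock. The split of calls depended on scaling, with 5 higher and 6 lower after quantile normalization and 1 higher and 9 lower after centring each array on its median. The comparison shares its WT/mock and KO/ERRb-wt arrays with the comparisons above, so its values are no separate evidence for them. The counts rest on few clones: without clone 5-2 they were 0 higher and 1 lower, without 12-1 they were 4 and 2, without 12-3 they were 2 and 2, and without 5-5 they were 1 and 6.

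**Figure D2:**
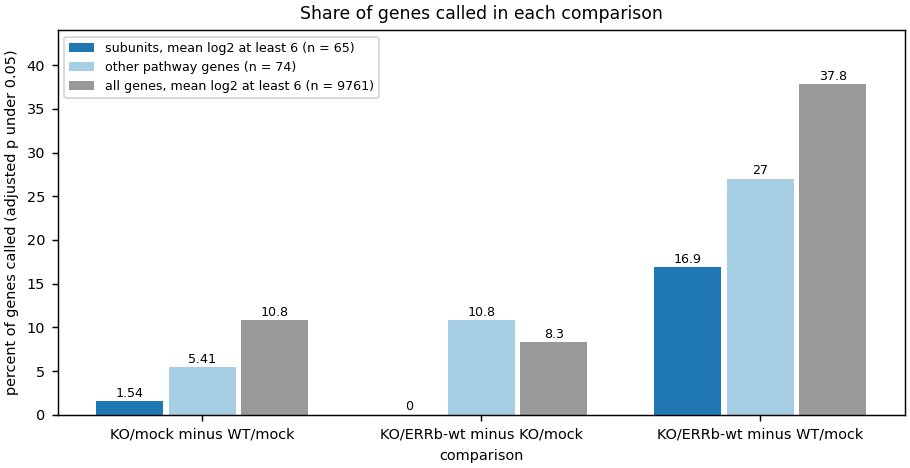
Bars give the percent of genes called by limma at an adjusted p under 0.05, either direction, in each of 3 comparisons, for subunits with a mean log2 of at least 6 (n = 65), the other genes of the pathway (n = 74) and all genes with that brightness (n = 9761). The subunit bar stands at 1.54, 0 and 16.9%, below the grey bar of all such genes at 10.8, 8.3 and 37.8% each time.

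All 3 members that rose belong to complex I. Ndufa11 read 9.20, 9.22, 9.18 and 9.35 on KO/ERRb-wt, above every WT/mock array given earlier, by 0.32 ± 0.06 (adjusted p = 0.00502). This was the steadiest of the increases, since no single array ended its call (adjusted p at most 0.0193), but leaving out clone 5-2 did (0.0567), as did averaging in its second, dim probe set (0.11, adjusted p = 0.655). Ndufa1, an X-linked membrane-arm subunit needed to build the complex, read 8.60, 8.64, 8.72 and 8.51 on WT/mock, 8.91, 8.78, 8.78 and 8.86 on KO/mock, and 8.90, 8.80, 8.74 and 8.90 on KO/ERRb-wt. Both knockout labels lay above WT/mock with no overlap, by 0.21 ± 0.07 each, and only the second passed (adjusted p = 0.0481, against 0.115 for KO/mock). Leaving out any of 10 single arrays, all but clone 5-5 replicate 1 and clone 12-3 replicate 1, ended that call (adjusted p up to 0.12), and so did leaving out any clone (up to 0.164). Ndufv1, the core subunit that binds NADH and flavin, read 9.20, 9.10, 9.20 and 9.15 on WT/mock, 9.29, 9.26, 9.25 and 9.22 on KO/mock, and 9.30, 9.36, 9.35 and 9.34 on KO/ERRb-wt. Its labels formed 3 steps without overlap, and the whole step from WT/mock to KO/ERRb-wt was 0.18 ± 0.05 (adjusted p = 0.03). This call was lost without clone 5-2 replicate 2, clone 5-5 replicate 2, clone 12-1 replicate 2 or either array of clone 12-3 (adjusted p up to 0.0829), and without any clone but 8-3 and 8-4 (up to 0.133).

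Of complex I, 3 members also fell. Ndufa7, an accessory subunit of the NADH-binding module, read 9.11, 8.95, 9.00 and 8.73 on WT/mock, 8.85, 8.96, 8.83 and 8.74 on KO/mock, and 8.69, 8.58, 8.55 and 8.68 on KO/ERRb-wt. KO/ERRb-wt lay below both other labels, by -0.32 ± 0.08 against WT/mock (adjusted p = 0.0229); the lowest WT/mock array and the highest KO/ERRb-wt array were close. Leaving out clone 5-2 replicate 1 or 2, clone 5-5 replicate 1, clone 12-1 replicate 2 or clone 12-3 replicate 1 ended the call (adjusted p up to 0.0698), as did leaving out clone 5-2, 12-1 or 12-3 (up to 0.172). Ndufc2, in the membrane arm, read 10.04, 10.07, 10.08 and 10.09 on WT/mock, 9.98, 9.98, 9.95 and 9.94 on KO/mock, and 9.95, 9.77, 9.85 and 9.78 on KO/ERRb-wt. It fell by -0.23 ± 0.05 (adjusted p = 0.0137), with KO/mock in between and overlapping KO/ERRb-wt only. No single array ended that call, while leaving out clone 5-2, 5-5 or 12-3 did (adjusted p up to 0.0885). Ndufv2, the iron-sulfur partner of Ndufv1 in the same module, differed the other way from it, at -0.18 ± 0.06 (adjusted p = 0.0478). Its call was the weakest, being lost when any single array but clone 12-3 replicate 1 was left out (adjusted p up to 0.11), and without any clone (up to 0.175).

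Complex III had 1 call. Uqcrc2, a core protein of the part that faces the matrix, read 10.43, 10.52, 10.42 and 10.36 on WT/mock, 10.42, 10.45, 10.28 and 10.40 on KO/mock, and 10.17, 10.13, 10.24 and 10.25 on KO/ERRb-wt. It fell by -0.24 ± 0.06 against WT/mock (adjusted p = 0.0209), and its KO/ERRb-wt arrays lay below all 8 others. Leaving out clone 5-2 replicate 2 or clone 12-1 replicate 2 ended the call (adjusted p up to 0.0626), as did leaving out clone 5-2 or 12-1 (up to 0.149). Its core partner Uqcrc1 differed by -0.09 ± 0.06 (adjusted p = 0.335) and the Rieske iron-sulfur protein Uqcrfs1 by -0.01 ± 0.07. The largest increase was that of Uqcrh, a hinge protein at the cytochrome c side, at 0.14 ± 0.06 (adjusted p = 0.163).

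In complex IV 3 members fell, and 2 of them are tissue forms. Cox6b2, the testis form of subunit 6b, read 8.77, 8.76, 8.64 and 8.60 on WT/mock, 8.56, 8.57, 8.47 and 8.54 on KO/mock, and 8.43, 8.44, 8.23 and 8.39 on KO/ERRb-wt. The labels formed 3 steps without overlap, and the step from WT/mock to KO/ERRb-wt was -0.32 ± 0.07 (adjusted p = 0.00618). Cox7a1 read 7.37, 7.32, 7.51 and 7.36 on WT/mock and fell by -0.31 ± 0.07 (adjusted p = 0.0106) to the KO/ERRb-wt values given above. No single array ended either call (adjusted p at most 0.0228 and 0.0311), but leaving out clone 5-2 or 12-3 did for Cox6b2 (up to 0.0804) and clone 5-5 or 12-1 for Cox7a1 (up to 0.0805). Cox7b, an X-linked subunit used in all tissues, read 10.28, 10.40, 10.22 and 10.19 on WT/mock, 10.30, 10.26, 10.14 and 10.18 on KO/mock, and 10.10, 9.92, 9.94 and 10.11 on KO/ERRb-wt. It fell by -0.26 ± 0.07 (adjusted p = 0.0335), a call that was lost without either array of clone 5-2, clone 12-1 replicate 2 or clone 12-3 replicate 1 (adjusted p up to 0.0949), without clone 5-2, 12-1 or 12-3 (up to 0.224), and with the 2 groups fitted alone (0.0598). Cox8b, called against KO/mock, had the largest increase of the complex here and missed the threshold at 0.21 ± 0.07 (adjusted p = 0.0737).

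In complex V the only call was Atp5j, which encodes coupling factor 6 of the stalk that joins the catalytic head to the membrane part. It read 7.61, 7.68, 7.64 and 7.69 on WT/mock, 7.57, 7.62, 7.62 and 7.58 on KO/mock, and 7.49, 7.39, 7.43 and 7.48 on KO/ERRb-wt. All KO/ERRb-wt arrays lay below the other 8, at -0.21 ± 0.05 against WT/mock (adjusted p = 0.0145), and no single array ended the call, while leaving out any clone but 8-3 and 8-4 did (adjusted p up to 0.0665), and so did quantile normalization (-0.16, adjusted p = 0.0613). The largest increase was that of Atp5g1, at 0.30 ± 0.11 (adjusted p = 0.0751), whose KO/ERRb-wt arrays of 6.31, 6.50, 6.74 and 6.77 were split by clone and reached into the WT/mock range. Without clone 12-1 its difference was 0.48 (adjusted p = 0.0108). The catalytic subunit Atp5b was nearly flat: it lay between 12.32 and 12.38 on all 12 arrays, and its 95% interval ran from -0.10 to 0.10.

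**Figure D3:**
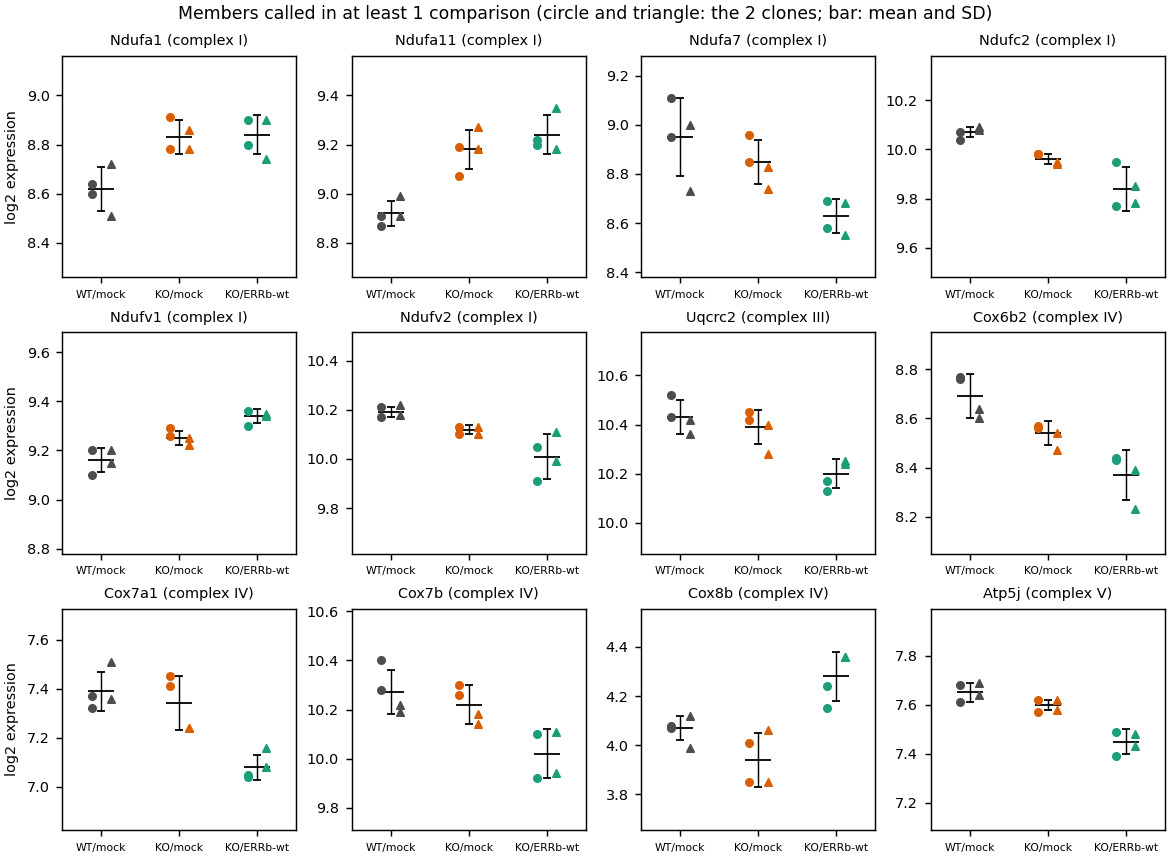
Log2 expression of the 12 members called in at least 1 comparison, with a point per array (circle and triangle for the clones of a label) and bars for the mean and SD of 4 arrays. Axes have different positions but the same length. In the panels of Atp5j, Uqcrc2, Cox6b2, Cox7a1, Cox7b and Ndufa7 the 4 KO/ERRb-wt points lie below all others. Ndufa11, Ndufa1 and Ndufv1 are higher under both knockout labels than on WT/mock.

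Members with an adjusted p between 0.05 and 0.1 against WT/mock were 7: Ndufa6, Ndufa3 and Ndufc1 with negative differences and Ndufa5, Atp5k, Atp5g1 and Cox8b with positive ones. Their differences were -0.23, -0.20, -0.20, 0.18, 0.18, 0.30 and 0.21 in that order. The median over all members was -0.01 (0.03 for all genes), turning to 0.02 after quantile normalization and falling to -0.05 after median centring, so it has no settled sign. By complex it was -0.04 for complex I, -0.01 for complex III, 0.00 for complex IV and 0.07 for complex V. The median size of a difference was 0.0966 for the members and 0.175 for all genes with a mean of at least 6. No member lay outside the range from the 5th to the 95th percentile of those genes, -0.63 to 0.41, and the 95% interval stayed within 0.5 of 0 for 72 of 76.

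The calls by module of complex I were too few to compare, and differences between modules were not tested. In this comparison, where 20.8% of all genes and 37.8% of those with a mean log2 of at least 6 were called, of 6 core subunits, 1 rose and 1 fell; of 6 accessory subunits of the NADH-binding module 1 fell; of 17 accessory subunits of the membrane arm 2 rose and 1 fell; and of the pair next to the quinone site (Ndufa5 and Ndufa9) 0 were called by limma, with 1 at an unadjusted p under 0.05. Within complex V, 0 of 5 subunits of F1, the catalytic head with its central stalk, were called. Of 3 c-ring genes 0 were called, and of 9 other stalk and membrane subunits 1. At an unadjusted p under 0.05 the counts were 1, 2 and 4 in that order. Beside these, 2288 genes were higher and 2999 lower of the 9761 with a mean log2 of at least 6.

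**Figure D4:**
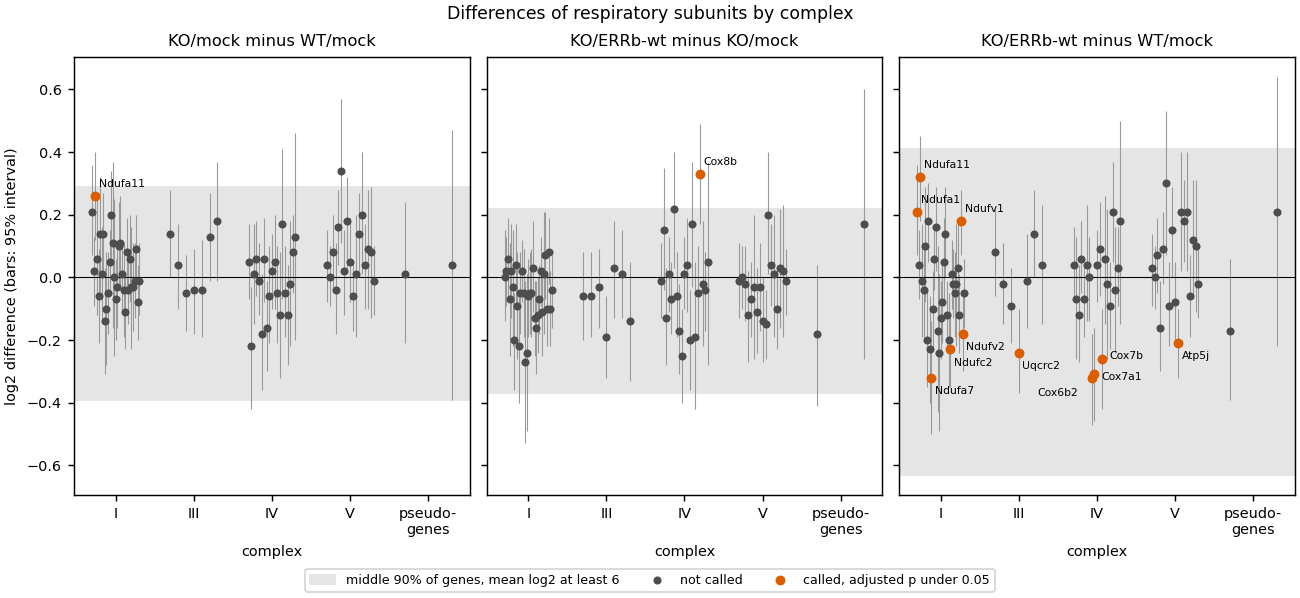
Each point is the log2 difference of a member with its 95% interval, by complex, in the 3 comparisons; orange marks members called at an adjusted p under 0.05, and the grey band runs from the 5th to the 95th percentile of genes with a mean log2 of at least 6 in that comparison. Nearly all points lie within the band, which runs from -0.39 to 0.29, -0.37 to 0.22 and -0.63 to 0.41, with 1, 1 and 0 members outside it.

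Complex IV has subunits with general and tissue forms, and each pair is given here for the KO/mock minus WT/mock and the KO/ERRb-wt minus WT/mock difference in turn. Apart from Cox7b, the general forms differed little: Cox4i1 differed by 0.05 and 0.04, Cox6a1 by -0.01 and -0.07, Cox6b1 by 0.06 and 0.00, Cox7a2 by 0.02 and 0.04, Cox8a by -0.05 and -0.09, and Ndufa4 by 0.08 and 0.03. None of these was called, whereas Cox7b, the general partner of Cox7b2, differed by -0.05 and -0.26 and was called in the second comparison. Among the tissue forms, Cox4i2, known from lung, differed by -0.22 and -0.07, Cox6a2, from heart and muscle, by -0.18 and 0.04, and Cox7b2 by -0.12 and 0.06. Cox8c, from testis, differed by -0.02 and -0.04, and Ndufa4l2, which is known to rise in low oxygen, by 0.13 and 0.18. These 5 probe sets had means from 2.93 to 5.43 and none was called. Cox8b, the heart and muscle partner of Cox8a, was as dim (mean 4.1) and differed by -0.12 and 0.21. It was called only on KO/ERRb-wt against KO/mock, as given above. The forms called against WT/mock, Cox6b2 (mean 8.53) and Cox7a1 (7.27), were well above the array median. For both, the general partner did not pass the test in the same comparison; whether the partners differ was not tested. Cox7a2l differed by 0.05 and 0.09.

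Several of these genes have near-identical processed pseudogenes, and 10 probe sets with a matching symbol list other genes too and were left out. As a result Uqcr10, Cox6c, Ndufs6, Ndufb2 and Ndufb4 have no value of their own here, and Ndufb1 was not analysed here. In 1 of the 10 the signal was called lower on KO/ERRb-wt than on WT/mock, and it is counted nowhere above. Of the members, 9 had a second probe set. That of Ndufa11 was dim (5.29) and read 0.01 ± 0.24 between KO/mock and WT/mock and -0.09 ± 0.24 between KO/ERRb-wt and WT/mock, so it did not bear out the increase, and its interval of -0.62 to 0.43 includes it. The second probe set of Cox7b (5.12) pointed the same way as the first, at -0.36 ± 0.16 (adjusted p = 0.155), but with both averaged Cox7b was not called (-0.31, adjusted p = 0.0693). Between KO/mock and WT/mock, the probe sets of Atp5e, the epsilon subunit, differed by 0.16 and -0.05, and those of Cox5b by 0.06 and -0.07. Neither pair held a call. The pseudogene models differed by at most 0.21 (Uqcrh-ps1 on KO/ERRb-wt over WT/mock; adjusted p = 0.543).

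The other genes of the pathway were 74: complex II, cytochrome c and carriers, assembly factors, mitochondrially encoded subunits and regulators. Between KO/mock and WT/mock 3 rose and 1 fell (5.41%). Between KO/ERRb-wt and KO/mock 1 rose and 7 fell (10.8%), and between KO/ERRb-wt and WT/mock 8 rose and 12 fell (27%). The percents for all genes are those given above, 5.58, 4.40 and 20.8%. Apart from Lyrm7, Esrrg and Ppargc1a, these 74 genes had a mean log2 of at least 6. The closer comparison is therefore with all genes that bright, of which 10.8, 8.30 and 37.8% were called. The mitochondrially encoded subunits with a value here were 10, and COX2, ATP6 and ATP8 were not among them. Of these 10, 0 were called by limma in any comparison and 0 had an unadjusted p under 0.05. They read 10.4 for ND6 and 12.8 to 13.4 for the rest, near the top value of the table, 13.6, where a rise could be hidden. Cycs, the cytochrome c gene, differed by 0.06, -0.05 and 0.01 in the 3 comparisons, and of complex II only Sdhc, a membrane anchor, fell on KO/ERRb-wt against WT/mock (-0.35 ± 0.07, adjusted p = 0.00522).

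Some larger single differences stood among the assembly factors. On KO/ERRb-wt against WT/mock, 40% of 15 complex I factors and 16.7% of 6 complex III factors were called. For complex IV the share was 33.3% of 18, and for complex V, its inhibitor included, 50% of 4. Of all genes with a mean log2 of at least 6, 37.8% were called. Whether these lists differ from other genes was not tested. Ndufaf7, a methyltransferase that acts early in building complex I, read 8.83, 8.84, 8.73 and 8.61 on WT/mock, 8.28, 8.44, 8.16 and 8.33 on KO/mock, and 8.05, 8.12, 8.09 and 8.04 on KO/ERRb-wt. It fell in both comparisons with WT/mock, by -0.45 ± 0.07 (adjusted p = 0.00502) and -0.68 ± 0.07 (adjusted p = 0.000109). Nubpl, which delivers iron-sulfur clusters to complex I, fell by -0.62 ± 0.12 on KO/ERRb-wt against WT/mock (adjusted p = 0.00421), while Ecsit and Ndufaf8 rose by 0.29 and 0.30. In the same comparison Tmem70, needed to assemble ATP synthase, fell by -0.57 ± 0.10 (adjusted p = 0.00273) and Atpaf2, a chaperone of its head, rose by 0.37 ± 0.07 (adjusted p = 0.00384). Factors of a single complex thus moved in both directions.

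Of the complex IV factors, Lrpprc, which stabilises mitochondrial messenger RNAs, read 9.71, 9.57, 9.75 and 9.71 on WT/mock, 9.85, 9.85, 9.89 and 9.95 on KO/mock, and 10.17, 10.21, 10.12 and 10.12 on KO/ERRb-wt. It rose by 0.47 ± 0.06 on KO/ERRb-wt against WT/mock (adjusted p = 0.000266). Cox17, a copper carrier, went the other way in that comparison by -0.46 ± 0.07 (adjusted p = 0.00066). Cox20, which guides assembly of subunit COX2, was the only gene of these lists to rise on KO/mock (0.39 ± 0.09, adjusted p = 0.0311) and then fall on KO/ERRb-wt against KO/mock (-0.41 ± 0.09, adjusted p = 0.0311); both values rest on the same KO/mock arrays, and KO/ERRb-wt differed from WT/mock by -0.02 ± 0.09. Uqcc3, a complex III factor, and Coa7, a complex IV factor, rose in both comparisons with WT/mock, by 0.30 and 0.32 and by 0.31 and 0.34.

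Among the regulators, Esrrb fell on KO/ERRb-wt against both labels, by -0.93 ± 0.13 against KO/mock (adjusted p = 0.00436) and -0.65 ± 0.13 against WT/mock (adjusted p = 0.00557). Its relatives were not called: Esrra differed by 0.02, -0.07 and -0.05 in the 3 comparisons and Esrrg, a dim probe set at 5.36, by -0.07, 0.28 and 0.21 (adjusted p 0.0927 for the second). The coactivators of the family were not called either, Ppargc1a (mean 3.11) with differences of at most 0.02 and Ppargc1b with -0.10, 0.02 and -0.08. Gabpa, the ETS factor whose sequence was searched above, read 10.05, 10.00, 10.03 and 10.09 on KO/mock and 9.82, 9.84, 9.75 and 9.78 on KO/ERRb-wt and fell by -0.25 ± 0.05 (adjusted p = 0.0229). Tfb1m, a methyltransferase of mitochondrial ribosomal RNA, fell by -0.42 ± 0.07 (adjusted p = 0.00834) and Nrip1, a corepressor of nuclear receptors, by -0.32 ± 0.08 (adjusted p = 0.0486) in the same comparison. Nrf1, whose sequence stands in the Ndufa11 promoter, rose on KO/ERRb-wt against WT/mock by 0.26 ± 0.07 (adjusted p = 0.0304).

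Set beside these, the promoters shown at the start give no single direction. Of the genes with the NRF1 sequence, Ndufa11 rose against WT/mock under both knockout labels. The others were not called in any comparison, with KO/ERRb-wt minus WT/mock differences of 0.18 for Atp5k, -0.07 for Cox6a1, -0.09 for Atp5g2 and -0.09 for Uqcrc1. Atp5g3, with the ERR element, differed by 0.15 ± 0.07 (adjusted p = 0.168) in that comparison and by -0.03 ± 0.07 between KO/ERRb-wt and KO/mock.

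**Figure D5:**
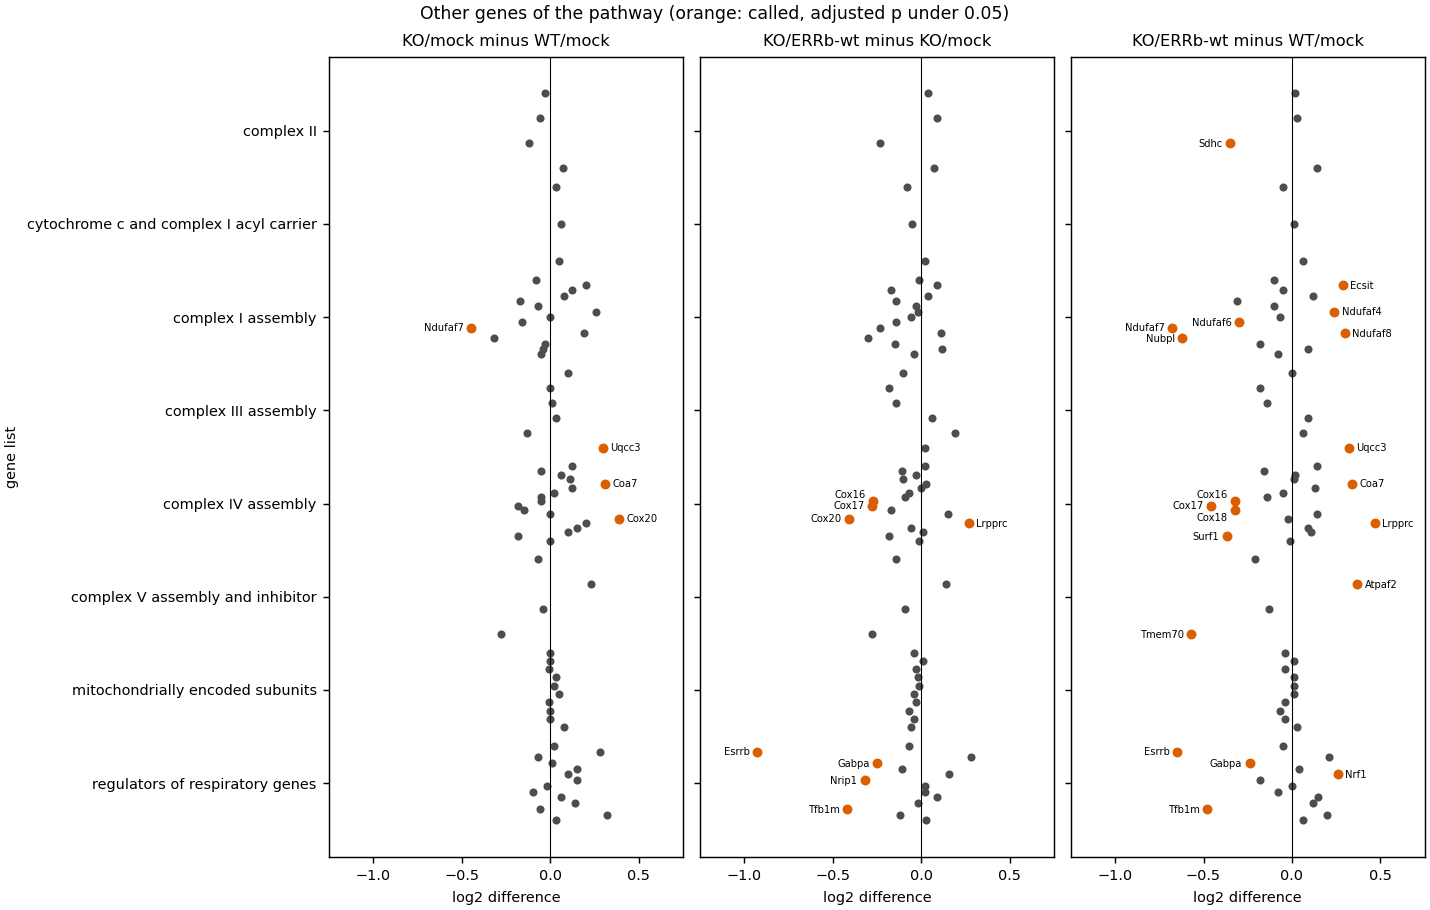
Log2 differences of the 74 other genes of the pathway by list, in the 3 comparisons; orange points are called at an adjusted p under 0.05 and named. The mitochondrially encoded subunits cluster at 0 in all panels, and the largest decreases are those of Esrrb (-0.93 against KO/mock) and Ndufaf7 (-0.68 against WT/mock).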

How the data were processed

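RNA of each sample went onto 1 MoGene 2.0 ST array. The authors' deposited values are log2 expression from RMA (Affymetrix Expression Console), as the submitters' processing notes name them; no version is known here. RMA brings arrays towards a common distribution, so a shift shared by most genes need not show. The deposited arrays still differed slightly in distribution, with medians from 5.00 to 5.07, and quantile normalization changed some counts, as given below. No scanner data were read, hence no detection call, and the number of arrays limits the precision.

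All 41345 probe sets entered 1 limma fit of the 3 groups (limma 3.58.1, statmod 1.5.0, R 4.3.3), in which clone was a random block with an estimated correlation of 0.0286. P-values were two-sided, adjusted over all probe sets by Benjamini-Hochberg, and called under 0.05; the code was tested on simulated data. The labels say biological replicate but name no separate cultures, so p-values measure the spread between these samples. Symbols came from the platform annotation (1 symbol for 23521 probe sets, several for 1814, none for 16010). Members and lists were chosen with earlier results of these data known.

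Named were members called in each comparison (arrays for up to 6 per direction, by size), extremes, brightest and dimmest per complex, members with an adjusted p from 0.05 to 0.1, isoform pairs, probe sets that disagree, and up to 4 called genes per other list with the ERR genes and coactivators. Alternatives were no clone block, clone averages, a replicate block, only the 2 groups compared, quantile normalization, median centring, a filter on dim probe sets (mean log2 of at least 5), array weights, a trended robust prior, the mean over probe sets, and leaving out each array or clone. The comparison of clones within a label was added after seeing the data.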

Additional observations from a re-analysis of the deposited data

How the results depend on the processing

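No call among the named members changed direction under any of the alternatives, and array weights and the absence of a clone block left the counts of called subunits as reported (1 and 0, 1 and 0, and 3 and 8, higher and lower in turn, in the order of comparisons used above). With clones averaged, 2 against 2, these were 0 and 0, 0 and 0, and 0 and 0, and for the other genes of the pathway 0 and 0, 0 and 0, and 1 and 6 in place of 3 and 1, 1 and 7, and 8 and 12. With the replicate number as a block, subunit counts were 0 and 0, 0 and 0, and 2 and 7, and the others 1 and 1, 1 and 3, and 8 and 12; the number restarts in every clone and pairs no arrays across labels, so no pairing was assumed. With only the 2 groups compared, subunits were 0 and 0, 0 and 0, and 1 and 6, and the others 2 and 1, 0 and 4, and 6 and 13. Quantile normalization gave 0 and 0, 0 and 0, and 5 and 6, with 2 and 1, 1 and 4, and 8 and 12 for the others, and median centring gave 1 and 0, 1 and 0, and 1 and 9. Leaving out dim probe sets gave 1 and 0, 0 and 1, and 6 and 10, with 5 others higher on KO/mock; fewer probe sets were then tested. The trended robust prior gave 1 and 0, 1 and 1, and 4 and 11, also with 5 others higher on KO/mock. The mean over probe sets gave 0 and 0, 1 and 0, and 2 and 7. The cause of these changes was not tested otherwise.

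Without single arrays or clones, subunit counts ranged from 0 to 1 higher and 0 to 0 lower, from 0 to 1 and 0 to 2, and from 0 to 4 and 1 to 9 in the same order. The other genes ranged from 0 to 4 and 0 to 2, from 0 to 1 and 1 to 7, and from 1 to 9 and 6 to 13. Median differences of the subunits then ranged from 0.00214 to 0.0404, from -0.0608 to -0.0188, and from -0.0256 to 0.00837. With clones averaged all 13 calls of a subunit in a comparison were lost. Other losses beside those named with each gene were Cox8b (KO/ERRb-wt against KO/mock), Ndufa1 and Ndufv2 under the replicate block, those 3 and Ndufv1 with only the 2 groups compared, Cox8b and Ndufv2 after quantile normalization, and Ndufa1 and Ndufv1 after median centring. Dim probe sets, such as Cox8b, have no background level here to be set against.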
